A study of Mus musculus with 6 samples.

Results

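The mitochondrial ribosome translates the few proteins that mitochondrial DNA encodes, all of them subunits of the respiratory chain and the ATP synthase. Its own proteins are encoded in the nucleus, made in the cytosol and imported, so that building it depends on many nuclear promoters. Kidney tubule cells, above all those of the proximal tubule, are rich in mitochondria and rely on oxidative phosphorylation for solute transport. The genes described here are the 78 protein-coding genes of the GENCODE M39 annotation whose names are Mrpl or Mrps followed by a number and at most 1 letter (MRP genes), of 21757 protein-coding genes on the standard chromosomes. Of these, 49 carry an Mrpl name and 29 an Mrps name. By general knowledge of the structure, 51 encode proteins of the large subunit, Mrps18a and Mrps30 among them, and 26 encode proteins of the small subunit. The remaining gene, Mrps36, encodes a subunit of the 2-oxoglutarate dehydrogenase complex. The proteins were also split into 47 with a counterpart in bacterial ribosomes and 31 listed as found in mitochondria only; the latter list held Mrpl47, which is related to bacterial L29, so the split was also made with it moved.

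Chromatin accessibility was measured by ATAC-seq, in which a transposase inserts adapters into open DNA, on nuclei of mouse kidney cortex. The labels list 3 WT and 3 Acly KO libraries, all of the treatment group Control, and give no age. By the study's methods, the WT mice carried floxed Acly without Cre, and the KO mice lacked ATP citrate lyase, the enzyme that makes cytosolic acetyl-CoA from citrate, in tubule cells through a Cre driven by the Ksp (cadherin 16) promoter, so that other kidney cells keep the gene. In the labels, WT covers batches 1 and 2 and KO batches 4 and 5, which leaves genotype and batch inseparable (they cannot be told apart). The deposited peak call pools the libraries: no value belongs to a single library, the depth of each is unknown, no value has a replicate error, and no comparison of WT with KO was possible. Whether the earlier WT libraries that the study also used entered the pool is not shown by the files. Every value below therefore describes 1 pooled kidney profile. The fold enrichment is the authors' linear ratio of the signal at a summit to the background of the peak call, and the -log10 q is that of the same summit. Each gene takes the values of the highest summit, by q, among the intervals within 1 kb of the start of its canonical transcript (the transcription start site, TSS).

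The labelled tissue was checked first. All 5 proximal tubule markers had an interval at the TSS, with a median fold enrichment of 15.1, led by Lrp2 (megalin) at 33.1. All 4 markers of the thick limb and distal tubule (median 8.45) and 4 of 5 of the collecting duct (median 13.7) had an interval, while Slc4a1 had none. The 3 podocyte and 3 endothelial markers all had an interval, at medians of 4.52 and 2.75, and 3 of 4 immune markers had one, at a median of 2.3. The macrophage gene Csf1r stood at 27.6, but at a summit 4502 bp from its TSS. At the summits nearest to the TSS no immune marker exceeded 2.49. Distant summits also gave the values of Slc34a1 (16.2 at 18535 bp), Slc12a3 (8.38 at 1744 bp) and Atp6v1b1 (22.7 at 1287 bp). The summits nearest to their TSS stood at 9.30, 4.39 and 11.5. By nearest summit, the medians of the tubule lists were lower, at 12.7 (proximal), 6.45 (thick limb and distal) and 8.05 (collecting duct). Those of the podocyte and endothelial markers were 3.14 and 2.75. Cd3e of T cells had no interval. Of 3 stromal markers 2 had an interval (median 8.28, and 4.65 by nearest summit). Of 6 genes of other organs 4 had one, the highest at 3.40. In bulk tissue, the number of cells of a type and the accessibility per cell cannot be told apart.

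The sequences at the highest summits of Mrpl17 and Mrpl3, and those in which a short motif lay closest to the summit, are shown first because the later results refer to them. The window of Mrpl18, which led in fold enrichment, is not shown and holds none of the letters marked here. Each line is a window of 81 bases of the GRCm39 reference around the highest summit of the gene, 5′ to 3′ on the gene's strand, and capitals mark exact matches, on either strand, to the letters CGCNTGCG (the site of NRF1, an activator of many nuclear genes for mitochondria), CCGGAAG (ETS factors, GABP among them) and AAGATGGC (YY1).
Mrpl17: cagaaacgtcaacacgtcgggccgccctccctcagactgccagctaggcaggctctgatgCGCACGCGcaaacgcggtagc
Mrpl3: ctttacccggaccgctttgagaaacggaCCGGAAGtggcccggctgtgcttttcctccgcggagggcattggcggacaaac
Mrpl9: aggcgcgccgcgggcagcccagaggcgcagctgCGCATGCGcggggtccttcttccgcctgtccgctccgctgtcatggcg
Mrpl30: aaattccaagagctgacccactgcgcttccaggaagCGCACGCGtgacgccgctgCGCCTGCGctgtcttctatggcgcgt
Mrpl43: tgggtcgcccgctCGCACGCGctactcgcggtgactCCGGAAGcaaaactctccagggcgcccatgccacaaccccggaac
Mrpl57: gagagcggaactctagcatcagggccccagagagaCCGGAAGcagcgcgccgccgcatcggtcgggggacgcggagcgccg
Mrps10: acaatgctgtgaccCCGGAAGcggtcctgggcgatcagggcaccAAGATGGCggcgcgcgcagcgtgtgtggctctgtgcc
Mrpl42: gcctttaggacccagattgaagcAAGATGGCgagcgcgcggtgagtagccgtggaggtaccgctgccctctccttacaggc
The windows lay at chr7:105460322-105460402, minus strand (Mrpl17, the gene with the highest fold enrichment at its own start), chr9:104930420-104930500, plus strand (Mrpl3, the lowest of all), chr3:94350583-94350663, plus strand (Mrpl9), chr1:37929421-37929501, plus strand (Mrpl30), chr19:44994893-44994973, minus strand (Mrpl43), chr14:58063665-58063745, plus strand (Mrpl57), chr17:47679785-47679865, plus strand (Mrps10) and chr10:95337727-95337807, minus strand (Mrpl42). In Mrpl9 and Mrpl30 the NRF1 letters lay across the summit, with the centre of the match 3.5 and 0.50 bases before it. In Mrpl43 and Mrpl57 the ETS letters lay across it, centred 1 and 2 bases before it. In Mrps10 and Mrpl42 the YY1 letters were centred 7.5 bases after and 13.5 bases before it.

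The starts of the MRP genes were open in the kidney almost without exception. An interval lay within 1 kb of the TSS in 77 of 78 genes (98.7%, Wilson 95% interval 93.1% to 99.8%, counting error only), against 75.8% of all protein-coding genes, and all 77 intervals covered the TSS itself. A fold enrichment of at least 20 was reached by 65 genes (83.3%), against 49.3% of all protein-coding genes, and of at least 40 by 26 genes (33.3%), against 26.9%. The share of MRP genes lay above that of all genes at the first and second of these levels and nearer to it at the third. Their promoters were mostly rich in CpG: 62 of 78 (79.5%) had an observed to expected CpG ratio of at least 0.60 and a GC content of at least 50% over 500 bp on either side of the TSS, against 46.1% of all protein-coding genes. Among all 10022 genes with such CpG-rich promoters, 99.0% had an interval, 80.8% reached a fold enrichment of 20 and 47.7% one of 40. The first and second of these shares were near those of the MRP genes, and the last was above theirs.

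Among protein-coding genes with an interval, the level itself was near the middle. The median fold enrichment over the 77 genes was 31.9, with quartiles of 25.8 and 52.3 and a range of 12.9 to 96.7, against a median of 30.1 over the 16499 protein-coding genes with an interval and of 39 over those with a CpG-rich promoter. Ranked among the 16499 genes, the MRP genes had a median percentile of 52.8 and ran from 25.7 to 99.1, with 45 of 77 above the median of that set and 11 in its top 10%. The 76 genes of the cytosolic ribosome, which had an interval in all 76 cases, had a median of 40.002, and the 85 of 88 nuclear genes of the respiratory chain and ATP synthase with an interval had one of 41.6. Both values lay above the median of the MRP genes, with ranges that overlapped theirs. The median -log10 q was 540 (144 to 2338), and fold enrichment and q carried the same information here, since the 77 genes held 70 distinct fold values and 70 distinct pairs of fold and q.

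**Figure D1:**
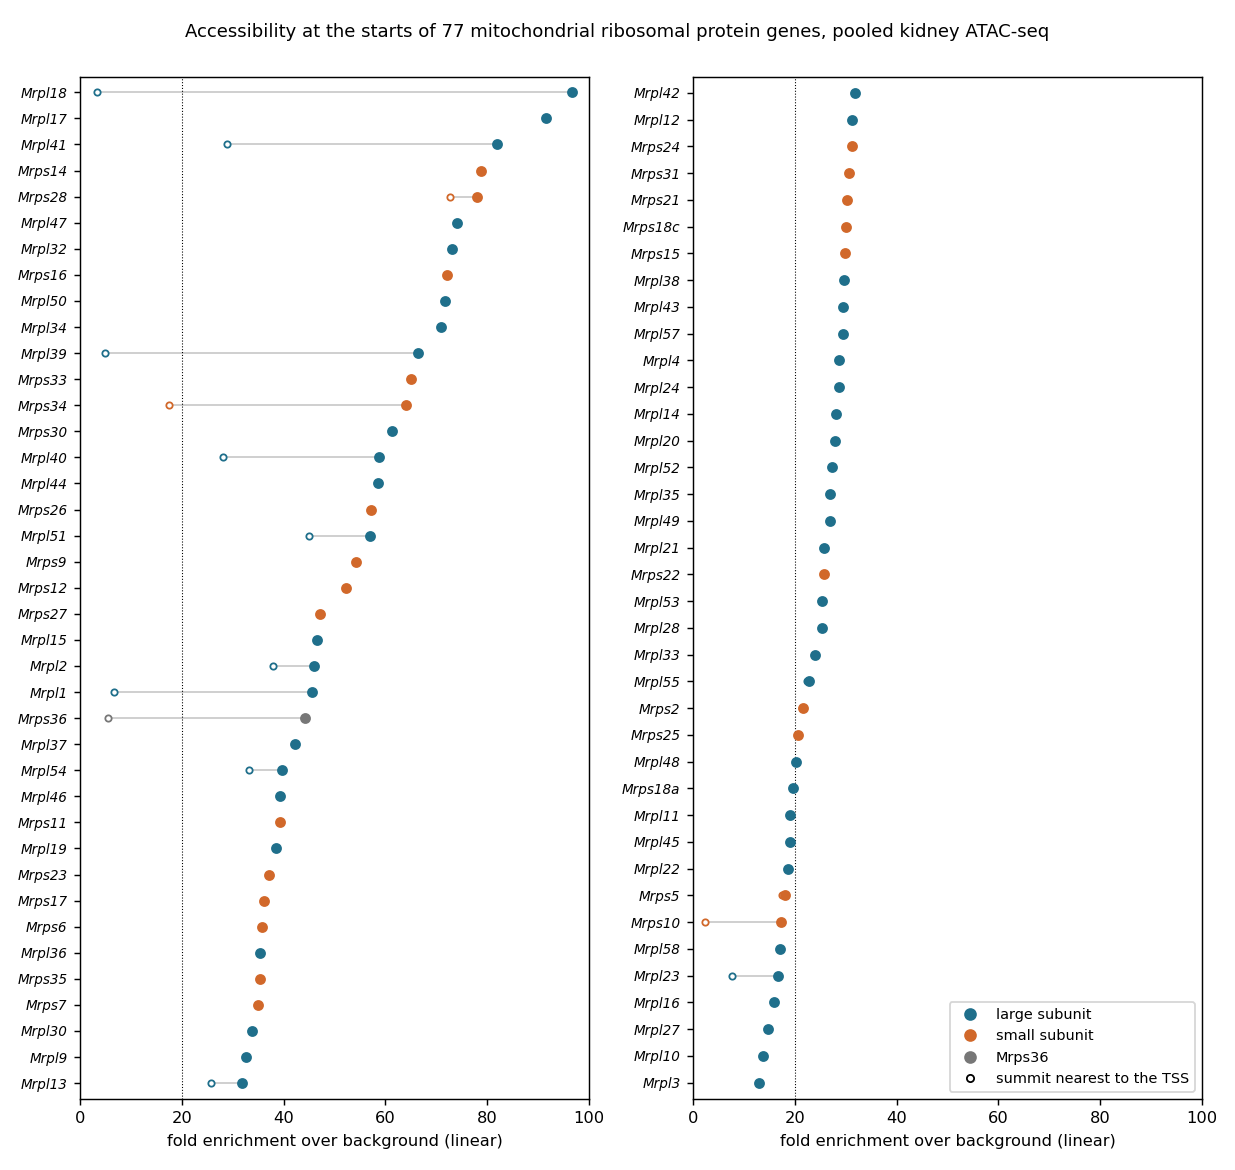
Fold enrichment over background (x axis, linear) for each of the 77 mitochondrial ribosomal protein genes with an interval, ordered from Mrpl18 at 96.7 to Mrpl3 at 12.9 and coloured by subunit. Filled points give the highest summit, open points the summit nearest to the TSS where it differs, and the dotted line a fold of 20, which 65 genes reached. The 6 lowest are all large subunit genes, as are 51 of the 77, and the small subunit gene Mrps10 is next. Both subunits occur among the 6 highest.

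The genes with the highest values encode proteins of both subunits. Mrpl18 led at 96.7, a value taken at a summit close to the start of Tcp1, a subunit of the CCT chaperonin, with which it shares the interval. Mrpl17, a large subunit protein with a bacterial counterpart, followed at 91.5, with its summit 10 bp downstream of the TSS and no other coding start within 1 kb of the interval. Mrpl41, a large subunit protein found in mitochondria only, stood at 81.8. The small subunit genes Mrps14 (78.7) and Mrps28 (78.0) and the large subunit gene Mrpl47 (74.0) completed the 6 highest. These 6 include both evolutionary classes.

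The 6 lowest were all genes of the large subunit, to which 51 of the 77 ranked genes belong. All 6 still exceeded the median of 2.55 over all intervals of the list. Mrpl3, which lies near the peptidyl transferase centre, was lowest at 12.9. Mrpl10, which anchors the stalk that recruits translation factors, stood at 13.7 and Mrpl27 at 14.8. Mrpl16 (15.9), Mrpl23 (16.7) and Mrpl58 (17.1) followed. The small subunit gene Mrps10 was next, at 17.2. Mrpl58 encodes a peptidyl-tRNA hydrolase that is built into the large subunit and frees stalled chains. The stalk protein gene Mrpl12 stood at 31.2, near the median of the set, and Mrps12, which lies at the decoding centre, at 52.3. Mrps36, which is not a ribosomal protein by function, stood at 44.3.

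By class, the 51 large subunit genes had a median fold enrichment of 29.7 and the 25 small subunit genes with an interval one of 35.8. The 31 genes of proteins found in mitochondria only had a median of 39.3, with 29 at 20 or more, and the 46 genes with a bacterial counterpart and an interval had one of 30.7, with 36 at 20 or more. With Mrpl47 moved to the bacterial class, these medians were 38.2 and 31.2. At the summit nearest to the TSS, the medians of the mitochondria-only and bacterial classes were close, at 29.7 and 29.3. Those of the large and small subunits were 28.2 and 35.3 there. The quartiles of each pair of classes overlapped, from 24.7 to 46.3 and 30.1 to 54.3 for the subunits, and from 28.4 to 58.7 and 23.1 to 43.9 for the mitochondria-only and bacterial classes. Without replicates, these differences in medians are descriptions of this profile. The 3 genes related to the bacterial protein S18, all of which encode parts of the mitochondrial ribosome, differed in the list: Mrps18a stood at 19.7 and Mrps18c at 30.1, and Mrps18b had no interval.

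**Figure D2:**
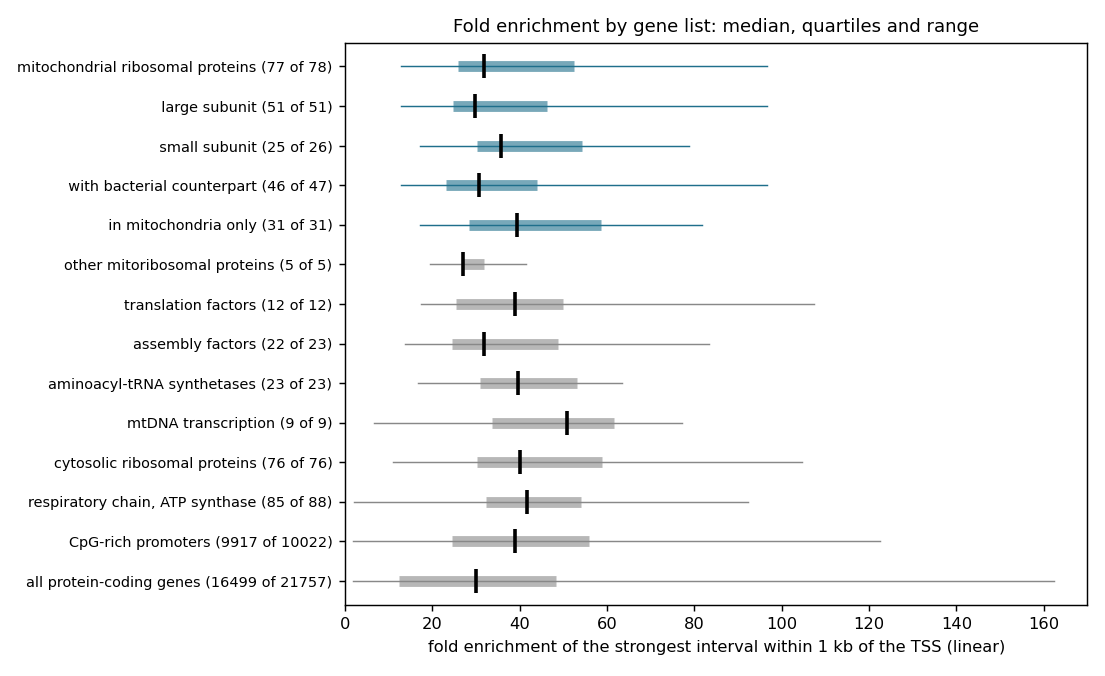
Fold enrichment (x axis, linear) of the strongest interval within 1 kb of the TSS by gene list, with the number of genes that have an interval. Black ticks are medians, thick bars run between the quartiles and thin lines over the full range, which describe spread among genes and not replicate error; the median of the mitochondrial ribosomal protein genes (31.9) lies between those of all protein-coding genes (30.1) and of CpG-rich promoters (39).

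Mrps18b was the single MRP gene without an interval, and the gap was in the filtered list alone. Its TSS is at position 36227490 of chromosome 17, on the minus strand. The summit list deposited before filtering held 3 summits within 1 kb of it, the highest 224 bp upstream of the TSS with a -log10 q of 1613, which would rank eighth among the MRP genes. That summit belonged to a peak whose 53 summits ran from position 36217306 to 36236297, and 0 of these 53 were in the filtered list. The intervals on either side ended at 36216624 and began at 36237139, and the stretch between them also holds the starts of Atat1, an acetyltransferase of tubulin, and Ppp1r10, a regulator of a protein phosphatase. The authors removed blacklisted regions after the call, and whether this step took out the stretch was not tested. With the list before filtering, 78 of 78 MRP genes and 75.5% of all protein-coding genes had a summit within 1 kb of the TSS.

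The intervals at the MRP genes had a median width of 2717 bp, against 2955 bp for all protein-coding genes with an interval and 3411 bp for those with a CpG-rich promoter, and held a median of 6 summits. Mrpl11 had the narrowest, of 1015 bp with 1 summit. The widest, of 25641 bp with 82 summits, contained Mrps34 and also reached the starts of Eme2, Igfals, Nme3, Nubp2 and Spsb3. The value of Mrps34 (64.0) came from a summit 8624 bp upstream, 122 bp from the start of Nubp2, while the summit nearest to its own TSS stood at 17.5. Mrps34 is thus 1 of 28 genes, of 77, whose interval also lay within 1 kb of another coding start, and for 49 genes the interval reached no other coding start. Over the 77 genes, width and fold enrichment had a Spearman correlation of 0.58, and the CpG ratio of the promoter and fold enrichment one of 0.08. Both are descriptions across genes of 1 pooled profile, and wider intervals hold more summits among which the highest was taken.

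**Figure D3:**
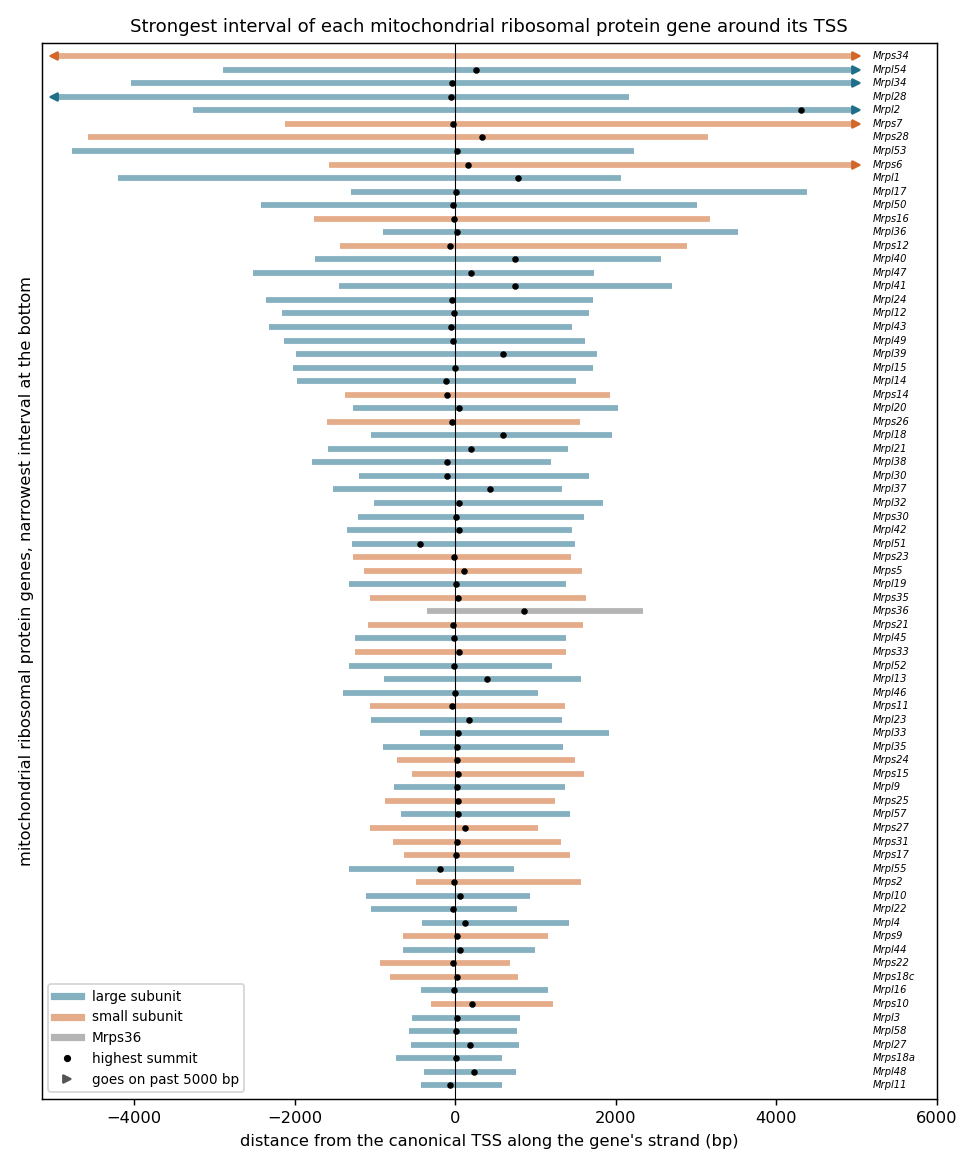
Extent of the strongest interval of each gene (bars, coloured by subunit) and its highest summit (black points) by distance from the canonical TSS in bp, along the gene's strand, with the narrowest interval at the bottom (1015 bp, Mrpl11) and the widest at the top (25641 bp, Mrps34). All 77 intervals cross the TSS at 0, most summits lie within 100 bp of it, and arrowheads mark intervals that go on past the axis.

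Within the interval, the highest summit usually marked the TSS. It lay within 100 bp of the canonical TSS in 51 of 77 genes (66.2%), within 50 bp in 42 and within 200 bp in 61. The share within 100 bp was 50.6% over all protein-coding genes with an interval. It was 65.9% for the respiratory chain and ATP synthase, 61.8% for the cytosolic ribosome and 57.9% for CpG-rich promoters, so it is not particular to the MRP genes. The median position in the MRP genes was 22 bp downstream, with 49 summits downstream and 28 upstream. These positions carry the limit that the sign of the read shift is not clear from the sources: a shift of 100 in one or the other direction places the centre of an extended read 200 bp apart, which is more than these distances. By annotation of the canonical transcript, 40 summits lay in the first exon within the 5′ UTR and 28 upstream of the TSS. A further 6 lay in the first intron, 2 in coding sequence of the first exon and 1 (Mrpl2) downstream of the gene. The summit of Mrpl2, 4309 bp from its TSS, lay 171 bp from the start of Cul7, a cullin of ubiquitin ligases. In 61 of 77 genes no other coding start was nearer to the summit than the gene's own, and in 16 another was nearer.

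Of the 26 summits over 100 bp from the TSS, 21 lay downstream and 5 upstream. On the upstream side, the farthest after Mrps34 were those of Mrpl51 (437 bp) and Mrpl55 (189 bp). On the downstream side, the farthest after Mrpl2 were those of Mrps36 (862 bp) and Mrpl1 (783 bp). The summits of Mrpl40, Mrpl41, Mrpl18, Mrpl39 and Mrpl37 also lay far downstream, at 747, 745, 598, 594 and 441 bp; these 5 were chosen for mention after their values were seen. A RefSeq start was available for 69 of the 78 genes and was placed on GRCm39 by matching its sequence, and in 50 it lay within 100 bp of the canonical TSS. In 18 genes the canonical TSS lay over 100 bp upstream of the RefSeq start, and in 1, Mrpl20, it lay 643 bp downstream.

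In 6 of these 7 genes (Mrps36, Mrpl1 and the 5 just named) the RefSeq start was much closer to the summit. Counted from it, the summit lay 45 bp upstream in Mrpl1, 142 bp upstream in Mrpl18, 56 bp upstream in Mrpl37, 99 bp upstream in Mrpl39, 21 bp downstream in Mrpl40 and 51 bp upstream in Mrpl41. In Mrps36 it remained 445 bp downstream. The summit nearest to the canonical TSS had a fold enrichment of 6.68 against 45.5 at the highest in Mrpl1, 4.78 against 66.5 in Mrpl39, 3.27 against 96.7 in Mrpl18 and 5.43 against 44.3 in Mrps36. It was higher in Mrpl40 (28.2 against 58.8) and Mrpl41 (28.9 against 81.8), and in Mrpl37 the nearest summit was the highest itself. Among the 18 genes with starts over 100 bp apart and a summit, 10 summits lay within 100 bp of the RefSeq start and 5 within 100 bp of the canonical start. Over the 68 genes with both starts and a summit, the summit was within 100 bp of the RefSeq start in 51 (75%) and of the canonical start in 47 (69.1%). Within 50 bp the order was the other way, with 33 (48.5%) and 39 (57.4%), and the median distance was 51.5 bp from the RefSeq and 37 bp from the canonical start. Over the 12529 protein-coding genes with both, the shares within 100 bp were 55% and 51.8%.

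**Figure D4:**
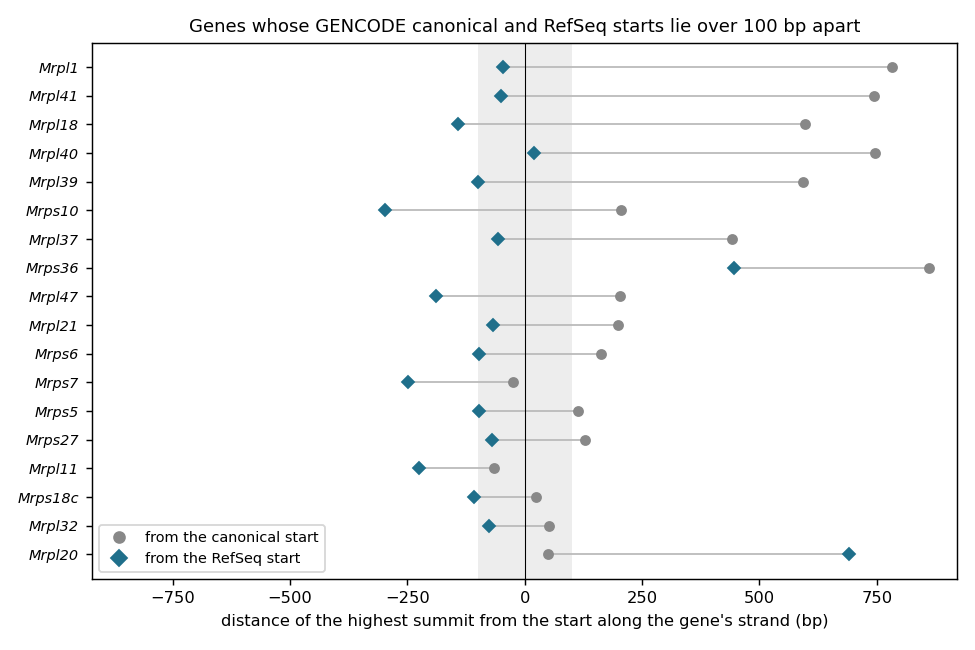
Distance of the highest summit (x axis, bp, along the gene's strand) from the canonical start (grey circles) and from the RefSeq start (blue diamonds) in the 18 genes whose starts lie over 100 bp apart and that have a summit. The grey band marks 100 bp on either side; 10 diamonds and 5 circles fall in it, and Mrpl20 is the 1 gene whose RefSeq start lies upstream.

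Some MRP genes have annotated starts head to head with those of another coding gene, in a shared stretch of open chromatin. A coding gene on the other strand began within 1 kb upstream and ran away from the MRP gene in 14 of 78. This was 17.9% (Wilson 95% interval 11% to 27.9%), against 5.04% of all protein-coding genes. The share was not counted among CpG-rich promoters or in the other gene lists. The starts lay 7 to 598 bp apart, with a median of 58.5 bp, and 10 of 14 were under 100 bp apart. In 13 further genes the annotated start on the other strand overlapped, by 54 to 968 bp, which brings the number with an opposite coding start on either side within 1 kb to 27, against 8.85% of all protein-coding genes; this wider count was added after the data were seen. For 11 of these 13 pairs the RefSeq starts of both genes could be placed, and in 11 of 11 these starts were head to head without overlap, with gaps of 32 to 308 bp. The 13 genes with a divergent partner and an interval had a median fold enrichment of 39.3 and the 64 without one of 31.2. At the summit nearest to the TSS these medians were 33.7 and 29.1. The 64 genes include the 13 with overlapping annotated starts, so they are not all without a head-to-head neighbour.

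Mrpl46 and Mrps11 form a pair in which both genes encode mitochondrial ribosomal proteins, 1 of each subunit. Their starts lay 30 bp apart on chromosome 7, and they shared 1 interval of 2428 bp, with a fold enrichment of 39.3 and the summit 4 bp downstream of the Mrpl46 TSS and 34 bp upstream of that of Mrps11. The stretch between the 2 starts, with 40 bp on either side, is printed on the strand of Mrps11 (chr7:78432797-78432907, plus strand), with capitals for matches to any of the 12 motifs searched, here the SP/KLF letters.
Mrps11: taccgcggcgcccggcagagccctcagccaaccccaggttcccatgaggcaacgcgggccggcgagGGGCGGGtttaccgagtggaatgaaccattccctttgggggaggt
Several other partners also act in mitochondria. Mrpl43 began 56 bp from Twnk, the helicase of mitochondrial DNA, Mrps12 began 129 bp from Sars2, the mitochondrial seryl-tRNA synthetase, and Mrpl47 overlapped Ndufb5, a subunit of respiratory complex I, with RefSeq starts 308 bp apart. The remaining named pairs joined the MRP genes to other functions. Mrpl18 and Tcp1 had RefSeq starts 238 bp apart, the canonical start of Mrpl41 lay 101 bp from Pnpla7, a lysophospholipase, Mrpl10 lay 110 bp from Lrrc46, Mrpl30 lay 61 bp from Mitd1, Mrpl32 lay 54 bp from Psma2, a proteasome subunit, and Mrpl51 lay 44 bp from Ncapd2, a condensin subunit. Mrpl27 and Eme1 had RefSeq starts 48 bp apart, Mrpl57 and Ska3 76 bp apart. In each of these pairs 1 interval lay within 1 kb of both starts, so its value belongs to neither gene alone.

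Short sequence motifs were counted in the reference from 250 bp before to 50 bp after the canonical TSS, on both strands and without mismatches. The ETS letters CCGGAAG occurred in 24 of 78 MRP promoters (30.8%), against 10.3% of all protein-coding promoters and 17% of the CpG-rich ones. The NRF1 letters CGCNTGCG occurred in 19 (24.4%), against 10.3% and 18.7%. The YY1 letters AAGATGGC occurred in 6 (7.69%), against 2.47% and 3.81%. At least 1 of these 3 motifs was present in 39 genes (50%), against 20.5% of all protein-coding and 34.7% of the CpG-rich promoters. For the cytosolic ribosome this share was 40.8%, and for the respiratory chain and ATP synthase 38.6%. Both NRF1 and ETS letters were present in 7 MRP genes, a count not made in other promoters, so it shows no trait of the set. Promoters of the cytosolic ribosome had a share of ETS letters of 30.3% and a share of NRF1 letters of 13.2%, and those of the respiratory chain had a share of NRF1 letters of 25% and a share of ETS letters of 13.6%. Each share is a description, with no test.

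The most frequent motif was that of SP/KLF factors. The SP/KLF letters GGGCGGG were found in 28 MRP promoters (35.9%), against 30.9% of all and 50.7% of the CpG-rich ones. The ZNF143 letters ACTACAA were found in 6 (7.69%), as many as for YY1, against 3.81% of all and 3.92% of the CpG-rich ones, and the NFY letters CCAATCA in 7 (8.97%), against 9.22%. The E-box CACGTG was found in 5 (6.41%), against 7.82%, the CREB letters TGACGTCA in 2 (2.56%), against 2.45%, and the letters AAGGTCA of ERR, a nuclear receptor family that acts on genes of energy metabolism, in 4 (5.13%), against 4.48%. The TATA letters TATAAA were found in 8 (10.3%), against 13.2%, a count that was 1 of 77 around the summits and 15 of 78 from 500 bp before to 100 bp after the TSS. In that longer window the ERR letters were found in 9 of 78. The letters of the tubule factors HNF1 (GTTAATNAT) and HNF4 (CAAAGTCCA) occurred in 0 of 78, against 0.809% and 0.45% of all promoters, shares at which less than 1 gene in 78 would hold them. In 13 genes none of the 12 motifs matched, a count not made in other promoters, so it shows no trait of the set. Matches of different motifs may overlap, and each motif was counted on its own.

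**Figure D5:**
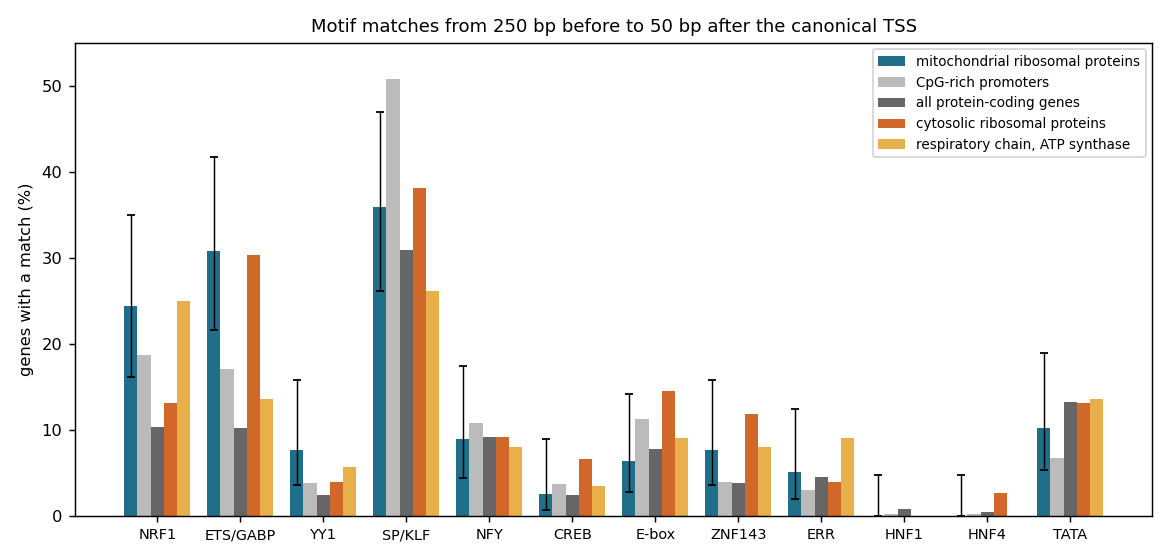
Share of genes (y axis, %) with an exact match to each of 12 short motifs from 250 bp before to 50 bp after the canonical TSS, for the mitochondrial ribosomal protein genes, CpG-rich promoters, all protein-coding genes, cytosolic ribosomal protein genes and respiratory chain genes. Error bars are Wilson 95% intervals for the 78 genes, which cover counting error only; the ETS/GABP bar (30.8%) stands above those of all genes (10.3%) and CpG-rich promoters (17%), and the HNF1 and HNF4 bars are at 0.

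Around the highest summits, the ETS, NRF1 and YY1 letters were also counted. In the 201 bp centred on the highest summit, the ETS letters occurred in 29 of 77 genes (37.7%), against 13.9% of all protein-coding genes with an interval and 17.8% of those with a CpG-rich promoter. The NRF1 letters occurred in 20 (26.0%), against 12.7% and 17.3%, and the YY1 letters in 10 (13%), against 3.03% and 3.83%. The genes of the respiratory chain had higher shares of NRF1 letters (28.2%) and YY1 letters (14.1%) and a lower one of ETS letters (22.4%), and those of the cytosolic ribosome had 21.1%, 5.26% and 31.6%. The match nearest to the summit lay at a median distance of 25 bp for ETS, 35.5 bp for NRF1 and 39.5 bp for YY1, and within 25 bp in 15 of 29, 9 of 20 and 3 of 10 genes. These distances were taken in the MRP genes alone, so they do not show whether the matches lie closer to the summit than in other genes. Beside the genes printed above, the closest ETS matches were those of Mrps22 (5 bp after the summit) and Mrpl58 (6 bp before it), and the closest NRF1 matches those of Mrpl32 (7.5 bp before) and Mrpl22 (8.5 bp after). The YY1 letters were on the strand of the gene in 8 of 10 matches. In 6 of these the ATG inside the letters was the annotated start codon, as in Mrps10 and Mrps18a, and 2 of the 10 matches, in Mrpl46 and Mrps11, are the same stretch read from either strand.

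Farther into the genes, most intervals were weaker than those at the starts. In 64 of 78 genes (82.1%), 311 intervals overlapped the gene more than 1 kb from its canonical start and from other canonical coding starts. Of all protein-coding genes, 69.8% had such an interval, a lower share. The strongest of each MRP gene had a median fold enrichment of 3.27, with 24 of 78 (30.8%) at 5 or more and 13 (16.7%) at 10 or more. Over all protein-coding genes the median was 7.14 and the shares at 5 and 10 were higher, at 43.1% and 26.8%. The MRP genes are shorter, with a median length of 8088 bp against 19173 bp. The strongest lay in intron 2 of Mrps27, a small subunit protein of the pentatricopeptide family (chr13:99489168-99490598), 8742 bp downstream of the TSS, and its fold enrichment of 60.8 exceeded the 47.1 at the start. An interval at 39.3 in Mrpl48 lay 7906 bp upstream of the canonical TSS, within 1 kb of the start of another coding transcript, and also exceeded the value at the canonical start (20.2). The strongest interval elsewhere also exceeded that at the start in Mrpl58, at 20.1 against 17.1, and 3 genes in all showed this. The interval of Mrpl58 overlapped the gene, but its summit lay past the gene's end, 9669 bp downstream of the TSS. In Mrps18a the values were 19.6 and 19.7. In Mrpl1 an interval in intron 2 stood at 24.2 against 45.5 at the start, and in Mrpl33 one in intron 3 stood at 23.9 against 24.03. Mrps27, Mrpl48, Mrpl1 and Mrpl33 were chosen for mention after their values were seen, and the files do not show which cells these intervals come from.

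Most other genes of mitochondrial translation also had an interval within 1 kb of the start. All 5 ribosomal proteins outside the naming rule had an interval, with a median fold enrichment of 27.1, from Gadd45gip1 at 19.5 to Dap3 at 41.4. The values of Gadd45gip1 and Dap3 came from summits 742 and 736 bp from the TSS. Their summits nearest to the TSS stood at 4.91 and 29.3. All 12 translation factors had one, with a median of 38.9, from the initiation factor Mtif3 at 17.3 to the release factor Mtrf1l at 107. Of 23 assembly factors 22 had one, with a median of 31.7, from the rRNA methyltransferase Mrm2 at 13.7 to Mettl15 at 83.3, the latter at a summit 2393 bp upstream of its TSS, and Mtg2, a GTPase of large subunit assembly, had none. All 23 genes of the mitochondrial aminoacyl-tRNA synthetase list had one, with a median of 39.6, from Mtfmt, which formylates the initiator tRNA, at 16.6 to Nars2 at 63.5. All 9 genes of mitochondrial DNA transcription and its RNA had one, with a median of 50.7, from Mterf1a at 6.68 to Tfb1m at 77.3. In each of these 5 lists the range overlapped that of the MRP genes.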

How the data were processed

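ATAC-seq libraries of mouse kidney cortex were grouped by their labels into 3 WT and 3 Acly KO libraries. By the study's methods, reads were trimmed (fastp) and mapped to mm39 (Bowtie2 2.3.4.3), and the authors discarded duplicates and multiply mapped reads. MACS3 3.0.0 called the peaks without a model, with an extension of 200, a shift of 100, a q of 0.05 and summits called. The sign of the shift is not clear from the sources used here, and the centre of an extended read lies 200 bp apart between the signs, which limits every summit distance. Blacklisted regions and non-standard chromosomes were removed with BEDTools 2.29.1. Regions removed in these steps, or where reads do not map uniquely, give no value here. The deposited peak list gives, as the authors' caller wrote them, a score, the fold enrichment of each summit as a linear ratio, its -log10 q, and the offset of the summit. The deposited list of summits before filtering gives the -log10 q. Both lists are pooled over libraries, so depth per library and replicate error are unknown, no test was made, and Wilson intervals cover counting error only.

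Intervals (distinct chromosome, start and end) were assigned to the Ensembl canonical TSS of GENCODE M39 on GRCm39 within 1 kb, and coordinates count from 1. RefSeq promoter sequences (table on GRCm38) were matched by symbol for 69 of 78 genes and placed on GRCm39 letter for letter. Motifs were exact matches on both strands. Genes named are those without an interval, the 6 highest and 6 lowest, genes sharing an interval with another of the set, the widest and narrowest intervals, the 3 farthest summits on each side, the Mrps18 paralogues, Mrps36, Mrpl12, Mrpl58 and Mrps12, up to 4 genes per motif with the match nearest to the summit, partners of named genes, and the extremes of other lists. The genes and lists were chosen with earlier results of these data known. The alternatives were other distances, thresholds, transcripts, windows and the unfiltered summits. The assignment and the motif search were tested on simulated data. Software was samtools 1.23.1, matplotlib 3.10.9, pysam 0.24.0, scipy 1.17.1, pandas 2.3.3, numpy 2.4.6 and Python 3.11.15.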

Additional observations from a re-analysis of the deposited data

Results flagged for a closer look

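Mrps18b had a signal outside the list that the counts use. The summits deposited before filtering reached a -log10 q of 1613.05 within 1 kb of its TSS, while the filtered list has no interval there. All other mitochondrial ribosomal protein genes had an interval in the filtered list. The reason that this stretch is absent from the filtered list was not tested.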

How the results depend on the processing

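The count of genes with an interval stayed at 77 with a distance of 500 bp or 2 kb, a q under 1e-05, a fold enrichment of at least 5, or any coding transcript, and was 78 with the summits before filtering. The count at a fold enrichment of 20 or more was 77 at a threshold of 10, 26 at a threshold of 40, 65 at 500 bp and 60 when the summit nearest to the TSS gave the value. The median fold enrichment lay between 29.7 and 32.5 under its 4 alternatives. The count of summits within 100 bp of the TSS was 58 over any coding transcript and 55 with the RefSeq start where placed, the latter added after the data were seen. Genes with any of the 12 motifs numbered 65, and 68 and 74 in the other windows, counted in the mitochondrial ribosomal protein genes alone. Of 28 results for single motifs in other windows, 19 stayed within 1.5 times and 9 moved, 7 of them upward. Around the summit and in the longer window, YY1 went from 6 to 10 and 10, the E-box from 5 to 3 and 9, and TATA from 8 to 1 and 15, while in the longer window alone ERR went from 4 to 9 and HNF1 and the stricter ERR letters from 0 to 1 each. Divergent partners numbered 13 within 500 bp, 18 with any transcript of the partner, and 27 with an opposite start on either side, which admits overlapping starts by construction. No paired analysis was possible because the deposited call pools all libraries, and for the same reason no library could be left out. The pooled values give no spread between mice, and the depth behind them is unknown.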
